A study of Mus musculus with 8 samples.

Results

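The genes described here are 9 markers of neuroendocrine differentiation, Chga, Chgb, Scg2, Scg3, Syp, Insm1, Neurod1, Eno2 and Ncam1, measured in normal and diseased mouse prostate. They were chosen by their symbols from a table of 27036 genes, by no cutoff on a measured value but with earlier results of these data known. All 9 were in the table, and 7 of them had at least 1 count in any library. The filter on low counts, more than 1 CPM (the count taken per effective library size, so that libraries of different depth can be compared) in at least 2 libraries, was passed by 4 of the 9 (Chga, Syp, Eno2 and Ncam1) and by 14034 genes in all.

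Total RNA was sequenced after removal of ribosomal RNA from 3 normal prostates (WT), 3 prostates with prostatic intraepithelial neoplasia (PIN, a precursor lesion) and 2 prostatic adenocarcinomas (PCa). The study's methods give the WT animals as R26 mTmG/+:Osr1 Cre/+, so the controls also carried the Cre allele and the mTmG fluorescent reporter. PIN and PCa tissue came from R26 mTmG/hAR:Osr1 Cre/+ animals, in which Cre expressed from Osr1 switches on a human androgen receptor transgene (hARtg) at the Rosa26 locus in cells that express or descend from cells that expressed Osr1. All animals were of mixed C57BL/6 and 129S1/SvImJ background, the lesions were picked under the microscope as mostly atypical or tumor cells, WT animals were matched for age, and the ages behind these libraries are not given in the sources used here.

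Neuroendocrine cells are a rare cell type of the normal prostate epithelium that stores peptides and amines in dense-core granules and releases them on stimulation. Granins form the core of these granules, synaptophysin sits in the membrane of small secretory vesicles, and the factors Insm1 and Neurod1 drive the endocrine program in many tissues. Some prostate adenocarcinomas take on neuroendocrine features, above all after androgen blockade, and pathologists look for them with antibodies to several of these proteins. Most of the markers are also made by nerves, so a piece of tissue that holds nerve contributes to them.

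Of the 9 neuroendocrine markers 4 could be tested, and 0 of the 4 were called higher in PIN or PCa. Of all tested genes, 0.00% in PIN and 4.35% in PCa were called higher against WT, and 2.55% in PCa against PIN, so that 0 of 4 is near the background. Insm1 and Neurod1 had no count in any of the 8 libraries, and the granins and Syp were at 4.004 CPM or less in each. Eno2 fell in PCa, and the granins and Syp differed more between libraries of 1 group than between the groups. Ncam1 was the highest of the 9 per length, with its highest values in PIN. In a whole piece of tissue, fewer cells of a type and less RNA per cell cannot be told apart.

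Sequence elements near the granin genes and Syp are shown because they are part of what these markers share. RE1 is the DNA element bound by REST, the repressor that keeps neuronal genes off in other cells. Its core was searched as AGCACC and GGACAG with any 2 bases between them, on both strands within 5 kb on each side of every gene start in the table (build NCBIM37, which is mm9). The core was found near 4 of the 9 markers, while 200 of all 27036 genes, or 0.74%, held it. In the sequences below, the capitals mark the core.
Chga, chr12:103793445-103793470, plus strand, intron, 272 bases after the start: ggattcAGCACCTCGGACAGcaccag
Chgb, chr2:132607527-132607552, plus strand, intron, 519 bases after the start: gatttcAGCACCCCGGACAGctccta
Syp, chrX:7215860-7215885, plus strand, coding exon, 269 bases after the start: cgctccAGCACCGTGGACAGagcccg
Insm1, chr2:146052451-146052476, plus strand, beyond the gene, 4800 bases after the start: cttggtAGCACCATGGACAGaggaaa

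The promoters of Chga, Chgb and Scg2, but not that of the other granin, Scg3, held a further shared run of letters, the cyclic AMP response element (CRE), which is bound by CREB family factors. It was searched as TGACGTNA on both strands in the RefSeq promoters of build GRCm38.p6, from 250 bases before to 50 bases after each gene start, and these letters were chosen after the sequences had been seen. Promoters were given for 7 of the 9 markers, without Insm1 and Ncam1, and 3 of the 7 held the element. Of all 32851 promoters, 963 or 2.93% held it. The capitals mark the element, and positions count back from the start.
Chga, chr12:102554888-102554913, plus strand, position -44: gcggtcctaTGACGTAAtttcctggg
Chgb, chr2:132781561-132781586, plus strand, position -72: gctgctccgTGACGTCAgggctgagc
Scg2, chr1:79440078-79440103, minus strand, position -68: ctgagccggTGACGTCAgcgtggaat
A match is a run of letters and was not tested as a binding site in these tissues.

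The libraries held 21751803 to 29730420 counts on genes, and Spearman correlations across genes were 0.923 to 0.961 within WT, 0.964 to 0.983 within PIN and 0.839 between the PCa libraries. Prostate identity was read from luminal markers: Krt18, a keratin of luminal cells, was at 520.2 CPM or more in every library, and Pbsn, a prostate secretory protein, was at 6552 to 23968 CPM in WT and PIN but at 8.53 and 60.8 CPM in PCa. Numbers in the labels put WT 1 in one series, WT 2 and WT 3 in another and all PIN and PCa libraries in one more. If these are batches, they cannot be told apart from the condition in comparisons with WT, whereas PCa and PIN share a series.

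WT 1 stood apart from the other WT libraries in ways that touch these markers. Of the 7 markers with counts, 5 (Chgb, Scg2, Scg3, Syp and Eno2) were highest in WT 1, and of all 19521 genes with more than 3 counts, 14.9% were. Peripheral neuron genes followed the same pattern: all 8 with more than 3 counts were highest in WT 1, and their summed level per length (CPM divided by exon length in kb, RPKM) was 12.0 there, 1.40 in WT 2 and 2.87 in WT 3. In PIN that sum was 3.28 to 3.64 RPKM, and in PCa it was 1.71 and 0.219. Schwann cell and nerve genes were highest in WT 1 for 6 of 9, with a sum of 21.0 RPKM against 14.1 and 12.8 in the other WT libraries.

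Single genes show the difference most sharply. Snap25, a protein of the machinery that fuses vesicles with the membrane, was at 4.20 CPM in WT 1 and at no more than 0.0753 CPM in any other library. Vip, a neuropeptide, was at 2.87 CPM in WT 1 and at 0 in the other 7. Dbh, the enzyme that makes noradrenaline, was at 3.21 CPM in WT 1 and at no more than 0.151 CPM elsewhere. Seminal vesicle genes also marked this library, with a sum of 11848 RPKM in WT 1, 0.623 and 0.759 in WT 2 and WT 3, 47.1 to 83.1 in PIN, and 3076 and 846 in PCa 1 and PCa 2. What these nerve and seminal vesicle genes contribute to the marker values was not tested, and the fold changes of the tested markers against WT are given below with and without WT 1.

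**Figure D1:**
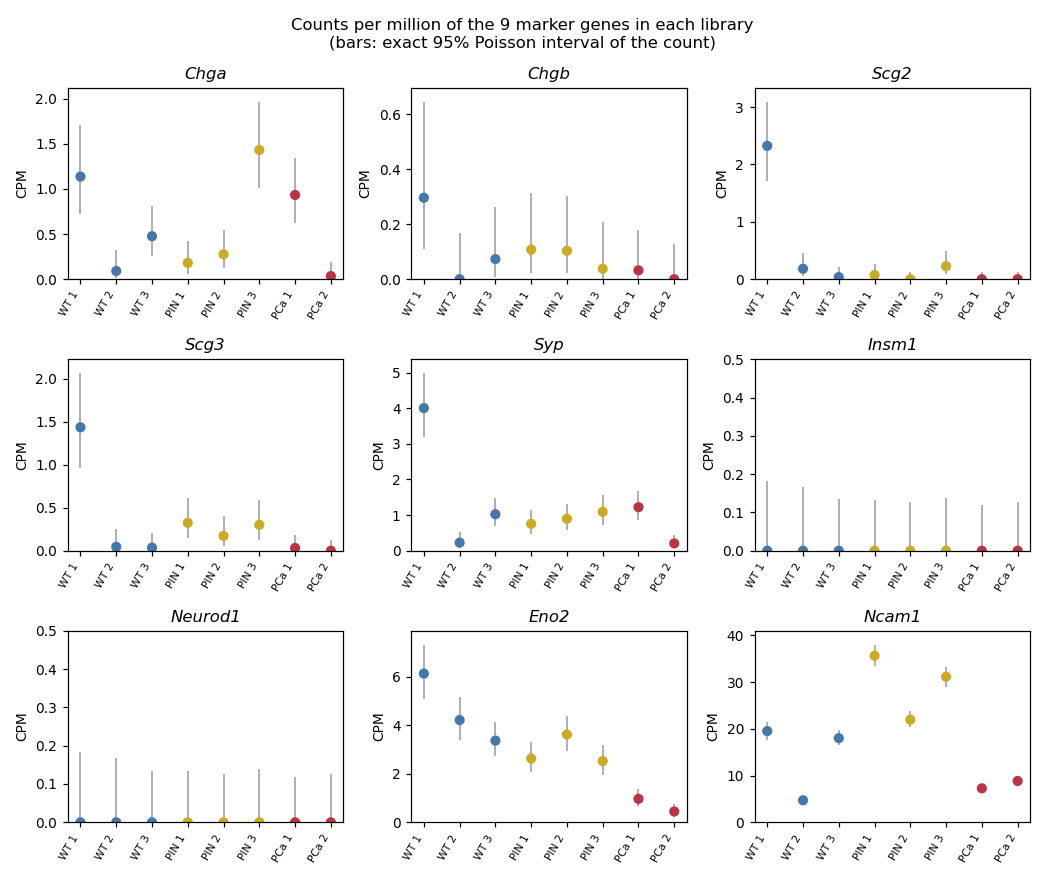
Each panel shows 1 marker gene, with the 8 libraries on the x axis (WT blue, PIN yellow, PCa red) and CPM on the y axis, and gray bars give the exact 95% Poisson interval of the count. Scg2, Scg3 and Syp stand highest in WT 1, Eno2 is lowest in the PCa libraries at 0.965 and 0.446 CPM, Ncam1 is highest in PIN, and Insm1 and Neurod1 are at 0 throughout.

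Among the granins, chromogranin A (Chga, ENSMUSG00000021194, chr12:103793179-103803237, mm9) is the classical marker of neuroendocrine cells. Chga was at 1.14, 0.0906 and 0.476 CPM in WT 1, 2 and 3, from 23, 2 and 13 counts. In PIN it was at 0.180, 0.276 and 1.43 CPM, and in PCa at 0.933 and 0.0343 CPM, where PCa 2 held a single count. The 3 groups overlapped, and each group held at least 1 library below 0.2 CPM and at least 1 above 0.9 CPM. The log2 fold change was 0.15 ± 1.31 (SE) in PIN against WT, with a 95% interval from -2.89 to 3.19. In PCa against WT it was -0.22 ± 1.47, with an interval from -3.63 to 3.20, and in PCa against PIN it was -0.37 ± 1.46. By edgeR's quasi-likelihood F-test (Benjamini-Hochberg) the adjusted p-values were 1, 0.945 and 0.911, and intervals this wide leave changes of several fold in either direction undetectable. The sign was set by single libraries: without WT 1 the fold change was 0.75 in PCa and 1.11 in PIN against WT, and without PIN 3 that of PIN was -1.29 (none called by the same test).

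Chromogranin B (Chgb, ENSMUSG00000027350, chr2:132607014-132620815) is the partner of Chga in granule cores. It had 6, 0 and 2 counts in WT, 3, 3 and 1 in PIN, and 1 and 0 in PCa, or 0.297 CPM at most. These counts were too few for a fold change to be read, and Chgb did not pass the filter.

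Secretogranin II (Scg2, ENSMUSG00000050711, chr1:79431244-79436665) is the precursor of the peptide secretoneurin. It was at 2.32, 0.181 and 0.0366 CPM in WT from 47, 4 and 1 counts, and in PIN at 0.0720, 0 and 0.226 CPM. Both PCa libraries had no count, which allows a level of up to 0.103 CPM in either (3 counts). Secretogranin III (Scg3, ENSMUSG00000032181, chr9:75491071-75531803) anchors the granin core to the granule membrane. It was at 1.43, 0.0453 and 0.0366 CPM in WT, at 0.324, 0.172 and 0.301 CPM in PIN, and at 0.0322 and 0 CPM in PCa. For both genes WT 1 alone held the high value, and in the other WT libraries they had 1 to 4 counts. Scg3 had 5 to 9 counts in each PIN library, above WT 2 and WT 3 with 1 count each, and below WT 1 with 29. Neither passed the filter, and in a fit without it the adjusted p-values in PCa against WT were 0.161 for Scg2, 0.214 for Scg3 and 0.422 for Chgb by edgeR's quasi-likelihood F-test (Benjamini-Hochberg), and none of the 3 was called in any comparison.

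Summed over the 4 granins, the level per length was 2.28 RPKM in WT 1, 0.141 in WT 2 and 0.311 in WT 3. PIN held 0.308, 0.261 and 0.999 RPKM, and PCa held 0.522 and 0.0182 RPKM. The PCa tissues lay far apart on this scale: PCa 2 was the lowest of the 8 libraries, with 1 granin count in all, and PCa 1, below WT 1 and PIN 3 only, held 31, of which 29 were Chga. The granin sums and the nerve gene sums stand side by side in the plot of summed levels.

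**Figure D2:**
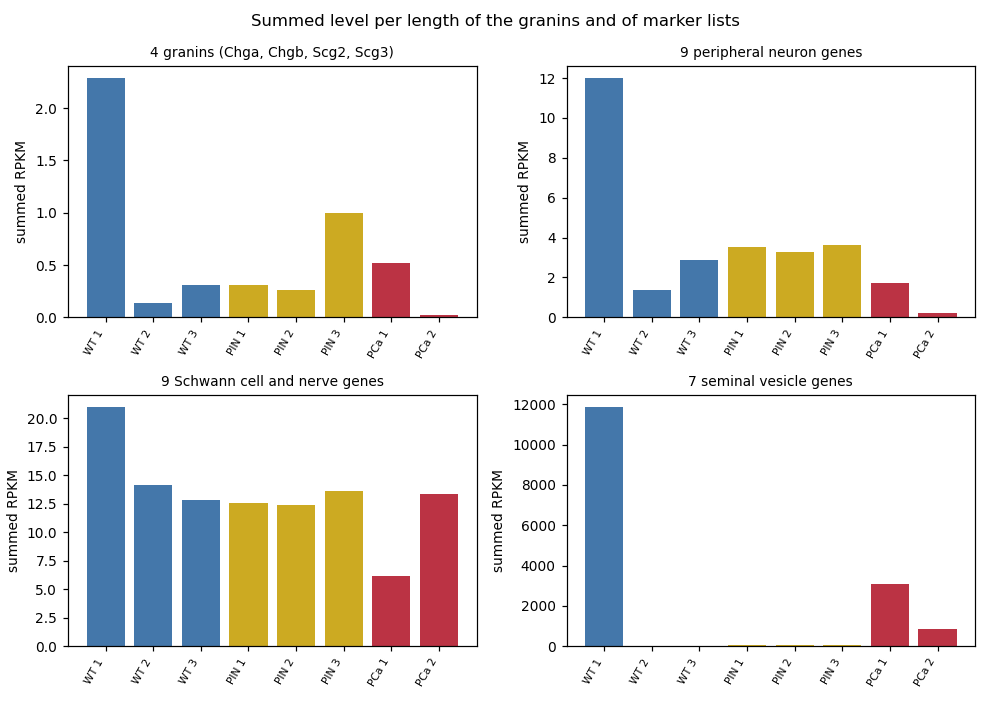
Bars give the summed level per length (RPKM, linear axes from 0) in each of the 8 libraries for the 4 granins, 9 peripheral neuron genes, 9 Schwann cell and nerve genes and 7 seminal vesicle genes, with WT in blue, PIN in yellow and PCa in red. WT 1 is highest in all 4 panels, at 2.28 RPKM for the granins and 12.0 RPKM for the peripheral neuron genes, and PCa 2 is lowest for the granins and the peripheral neuron genes, at 0.0182 and 0.219 RPKM.

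Synaptophysin (Syp, ENSMUSG00000031144, chrX:7215597-7230382) is an integral membrane protein of synaptic and synaptic-like vesicles and, beside Chga, the marker most used in pathology. Syp was at 4.004, 0.227 and 1.02 CPM in WT, from 81, 5 and 28 counts. PIN was narrower, at 0.756, 0.895 and 1.09 CPM, and PCa held 1.22 and 0.206 CPM. WT 1 was the highest library and PCa 2 the lowest, and the WT range held all PIN values and that of PCa 1. The log2 fold change was -0.93 ± 1.03 in PIN against WT, -1.28 ± 1.19 in PCa against WT (95% interval -4.04 to 1.48) and -0.35 ± 1.16 between PCa and PIN. By edgeR's quasi-likelihood F-test (Benjamini-Hochberg) the adjusted p-values were 1, 0.530 and 0.890. Without WT 1 the fold changes against WT had the other sign, at 0.53 in PIN and 0.18 in PCa (adjusted p = 0.920 and 0.929), and limma-trend with every library gave -0.17, -0.87 and -0.70 for PIN and PCa against WT and for PCa against PIN, none called. Syp overlaps the predicted gene Gm14703 in the annotation, and whether the counting used strand is not given in the sources used here.

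The transcription factors Insm1 (ENSMUSG00000068154, chr2:146047657-146050752) and Neurod1 (ENSMUSG00000034701, chr2:79292678-79296908) turn on granin and hormone genes in endocrine cells. Neither had a count in any of the 8 libraries, which together hold 212891804 counts. A count of 0 allows up to 3 counts, which is 0.0965 to 0.148 CPM in a single library and covers counting error only. At this depth the 2 factors were not detectable in WT, PIN or PCa, and no fold change was formed. Neurod1 overlaps Cerkl and Gm17325 in the annotation, and how reads on overlapping genes were counted is not given in the sources used here. Insm1 overlaps no other gene.

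Enolase 2 (Eno2, neuron-specific enolase, ENSMUSG00000004267, chr6:124710071-124719691) is a glycolytic enzyme of neurons and neuroendocrine cells that other cells also make at low levels. Eno2 was at 6.13, 4.21 and 3.37 CPM in WT, from 124, 93 and 92 counts. In PIN it was at 2.63, 3.62 and 2.52 CPM, and in PCa at 0.965 and 0.446 CPM from 30 and 13 counts. Both PCa libraries lay below every WT and every PIN library, while PIN and WT overlapped. The log2 fold change in PCa against WT was -2.68 ± 0.56, with a 95% interval from -3.99 to -1.38, and edgeR's quasi-likelihood F-test (Benjamini-Hochberg) called it lower (adjusted p = 0.0300, both PCa libraries below all 3 WT). In PCa against PIN the log2 fold change was -2.04 ± 0.55 with an adjusted p of 0.0719, and in PIN against WT it was -0.64 ± 0.45 with an adjusted p of 1, both short of the call.

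The direction of the Eno2 difference held throughout and its call did not. Leaving out 1 library at a time gave log2 fold changes from -3.33 to -2.22 in PCa against WT, and the call was lost without WT 1 (adjusted p = 0.0674), WT 3 (0.0704), PIN 1 (0.0650), PIN 2 (0.0566), PIN 3 (0.0681) or PCa 2 (0.0683) by edgeR's quasi-likelihood F-test (Benjamini-Hochberg). Without WT 1 the log2 fold change of Eno2 was -2.41 in PCa and -0.37 in PIN against WT. The model of only the 2 groups compared also lost the call (adjusted p = 0.133). DESeq2 called Eno2 lower in PCa against both other groups, with adjusted p-values of 2.47e-05 against WT and 0.00254 against PIN.

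Unlike Eno2, the other tested enolase genes, Eno1 and Eno3, were on average not lower in PCa than in WT. In PIN against WT, Eno1 differed by -0.45 ± 0.29 on the log2 scale beside -0.64 ± 0.45 for Eno2, neither called. Eno1, the form found in most cells, was at 34.4 to 39.4 CPM in WT, at no more than 27.9 in PIN, and 35.5 and 80.1 in PCa. Eno3, the muscle form, was at 4.03 to 10.3 CPM in WT, 7.23 to 10.5 in PIN, and 7.37 and 57.0 in PCa. Neither was called in PCa against WT, where Eno1 differed by 0.65 ± 0.32 and Eno3 by 2.101 ± 0.75 on the log2 scale (adjusted p = 0.234 and 0.121 by edgeR's quasi-likelihood F-test (Benjamini-Hochberg)), and PCa 2 was the highest library for both. The difference between Eno2 and these genes was not tested.

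NCAM (Ncam1, ENSMUSG00000039542, chr9:49310257-49607027) is a cell adhesion molecule, known as CD56 in pathology, of neuroendocrine cells, nerve and muscle. Ncam1 was at 19.5, 4.71 and 18.0 CPM in WT, from 395, 104 and 492 counts. In PIN it was at 35.7, 22.0 and 31.2 CPM, and in PCa at 7.27 and 8.85 CPM. Every PIN library was above every WT library, both PCa libraries were below every PIN library, and the PCa values lay within the WT range because WT 2 was low. The log2 fold change was 1.07 ± 0.50 in PIN against WT (95% interval -0.09 to 2.23), -0.81 ± 0.57 in PCa against WT and -1.88 ± 0.59 between PCa and PIN (95% interval -3.25 to -0.50). None was called by edgeR's quasi-likelihood F-test (Benjamini-Hochberg), with adjusted p-values of 1, 0.402 and 0.110. In PCa against PIN it was called lower by DESeq2 (adjusted p = 0.0139) and, with edgeR, when WT 2 was left out of the model (adjusted p = 0.0200). Without WT 1 the log2 fold change of Ncam1 was 1.38 in PIN and -0.50 in PCa against WT, and without WT 2, the low library, it was 0.66 and -1.22 (adjusted p = 1 and 0.0559 by edgeR's quasi-likelihood F-test (Benjamini-Hochberg)), none of them called. Ncam1 overlaps the predicted genes Gm11149 and Gm17616 in the annotation.

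Smooth muscle genes, and some nerve genes, were also lower in PCa. All 6 smooth muscle markers were called lower in PCa against WT and against PIN, beside 4.18% and 3.17% of all tested genes. The calls held under 15 or 16 of 16 alternatives against WT and 14 to 16 against PIN. The summed level of the 6 was 808 to 1768 RPKM in WT, 1190.0 to 2233 RPKM in PIN, and 20.0 and 9.04 RPKM in PCa. Among them Myh11, the myosin heavy chain of smooth muscle, was at 680.1 to 2257 CPM in WT and PIN and at 7.24 and 5.04 CPM in PCa. The summed level of the Schwann cell and nerve genes was 12.4 to 13.6 RPKM in PIN, and in PCa it was 6.18 and 13.3 RPKM, so that PCa 1 lay below all other libraries and PCa 2 within the range of WT and PIN. Of this list, Mbp, myelin basic protein, was called lower in both comparisons with PCa and fell by 1.57 on the log2 scale against WT (adjusted p = 0.0138 by edgeR's quasi-likelihood F-test (Benjamini-Hochberg)). Against PIN, the call of Mbp held under 8 of 16 alternatives and was lost without WT 1. Sox10, a factor that defines Schwann cells, was at 0 in both PCa libraries, and at 0.181 to 2.62 CPM in WT and 0.241 to 0.866 CPM in PIN. Ngfr, the low-affinity neurotrophin receptor, was at 0.997 to 10.1 CPM in WT and at 5.31 and 34.5 CPM in PCa, highest in PCa 2 (log2 fold change 2.29 ± 1.21, adjusted p = 0.264, not called by the same test). The part of muscle and nerve in the lower Eno2 and Ncam1 values of PCa was not tested.

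**Figure D3:**
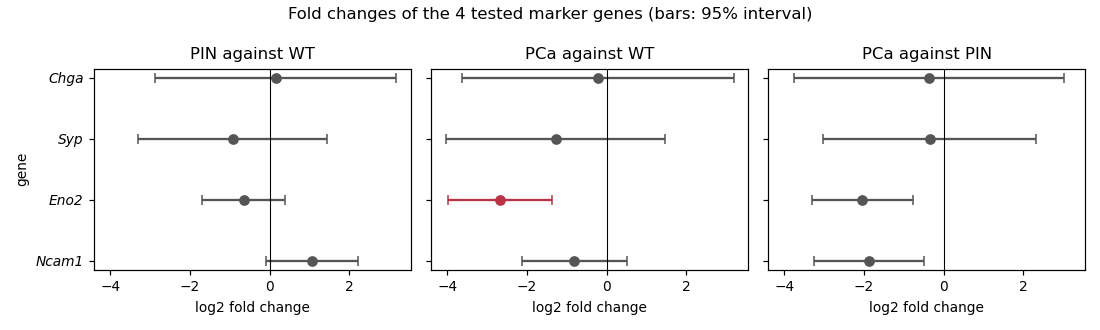
Each panel is 1 comparison, points give the log2 fold change of the 4 tested markers, and bars give the 95% interval. Only Eno2 in PCa against WT, drawn in red at -2.68, passed the limits of the call, and the intervals of Chga and Syp span 0 in every panel.

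With 4 tested markers, counts of calls can be set beside the share of all tested genes called but show little by themselves. In PIN against WT 0 of the 4 tested markers were called, and the percentage of all tested genes called was 0.00. edgeR's quasi-likelihood test gave 492 genes an unadjusted p under 0.05 there, none of them a marker, and DESeq2 called 39 genes, none of them a marker. Against WT, 1 of 4 was called in PCa, beside 8.54% of all tested genes. That call was downward, as for 4.18% of tested genes, and no marker was called upward, as for 4.35%. Between PCa and PIN 0 of 4 was called, beside 5.72% of all tested genes (2.55% higher and 3.17% lower in PCa), while 2 of the 4 (Eno2 and Ncam1) had an unadjusted p under 0.05. Both PCa libraries lay below all WT libraries for 1 of the 4 and below all PIN libraries for 2 of the 4, beside 19.6% and 23.2% of all tested genes. They lay above all WT or all PIN libraries for 0 of the 4, beside 17.7% and 21.1%. PIN lay above WT without overlap for 1 of the 4, Ncam1, beside 6.48%, and below WT for 0 of the 4, beside 6.38%. The median log2 fold change of the 4 was -0.25, -1.04 and -1.12 in the 3 comparisons in this order, beside -0.02, 0.01 and 0.07 over all tested genes. The 3 comparisons share libraries, so their values are not separate evidence.

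Per length, the order of the markers was similar at its top and varied below. Ncam1 led in each group, at 1.39 ± 0.81 RPKM in WT, 2.92 ± 0.69 in PIN and 0.796 ± 0.110 in PCa (mean ± SD, n = 3, 3 and 2). In PIN its mean was above that of 66.5% of all genes in the table, and in PCa above 53.9%. Eno2 was second in WT at 0.971 ± 0.301 RPKM and in PIN at 0.621 ± 0.128 RPKM. In PCa, Chga (0.257 ± 0.338 RPKM), Eno2 (0.150 ± 0.078) and Syp (0.137 ± 0.138) did not differ beyond their spread. In WT, the means of Scg2 (0.341 RPKM), Syp (0.336), Chga (0.302) and Scg3 (0.225) lay within 1 SD of each other, and Chgb was lowest of the detected markers at 0.0450 RPKM.

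The genes most like each tested marker were found by the root mean square distance between centred log2(CPM + 1) profiles over the 8 libraries. The 3 nearest to Chga were AA960436, Snap47 and Tspan11, at distances of 0.213, 0.255 and 0.258, beside an SD of 0.471 for Chga itself. Prkcq (0.146), Fbln7 (0.189) and Mlxipl (0.199) were nearest to Syp, all 3 with their highest value in WT. Vegfb, Lmo2 and Lrrn1 were nearest to Eno2, at 0.198, 0.204 and 0.207. Vegfb, a growth factor of the VEGF family, was at 32.5 to 40.5 CPM in WT, 22.5 to 25.2 in PIN, and 11.8 and 6.41 in PCa, an order like that of Eno2 at a higher level. Nearest to Ncam1 were Cpt1c at 0.320, Tmem132c at 0.325 and Kcnq5 at 0.335. The SD of the marker's own profile was 0.638 for Syp, 0.752 for Eno2 and 0.964 for Ncam1, and a distance is read beside it.

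The wider neuroendocrine program was read from lists of genes with related roles. Of 9 granule and prohormone genes, 5 were tested, and 1 was called lower in PCa against WT and none higher. The share of all tested genes was 4.18% called lower and 4.35% called higher in that comparison. The median of the 5 was 0.14 on the log2 scale. The gene called was Ptprn2, a phosphatase-like protein of the granule membrane, at 38.2, 40.5 and 51.2 CPM in WT, 41.3, 22.5 and 50.7 in PIN, and 0.354 and 0 in PCa. PCa differed by -7.87 ± 1.04 on the log2 scale against WT and -7.69 ± 1.03 against PIN (adjusted p = 0.00865 and 0.0128 by edgeR's quasi-likelihood F-test (Benjamini-Hochberg)). Cpe, the carboxypeptidase that trims prohormones, was the highest of the list per length in PCa. Cpe was at 64.5, 48.3 and 52.5 CPM in WT, 584.5, 89.1 and 427.0 in PIN, and 169.3 and 797.5 in PCa, so every PIN and PCa library lay above every WT library. Its log2 fold change was 2.74 ± 0.77 in PIN and 3.13 ± 0.83 in PCa against WT, and neither was called (adjusted p = 1 and 0.0564 by the same test).

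Of 19 genes for synaptic vesicles and exocytosis, 12 were tested and 2 were called lower in PCa against WT and against PIN, with none higher. The share of all tested genes called lower was 4.18% against WT and 3.17% against PIN. The median of the 12 was -0.34 against WT. Rab3a, a small GTPase of synaptic vesicles, was at 27.3 to 30.4 CPM in WT, 20.4 to 33.3 in PIN, and 9.07 and 7.82 in PCa (log2 fold change against WT -1.75 ± 0.28, adjusted p = 0.0138 by edgeR's quasi-likelihood F-test (Benjamini-Hochberg)). Rab3d, its counterpart in exocrine secretory cells, was at 226.2 to 341.2 CPM in WT, 174.6 to 240.9 in PIN, and 81.7 and 86.9 in PCa (log2 fold change -1.80 ± 0.27, adjusted p = 0.0119). Against WT, the call of Rab3a held under 14 and that of Rab3d under 15 of 16 alternatives, and both were lost in the model of only the 2 groups compared. Against PIN, the calls of both Rab3 genes held under 9 of 16 alternatives. Sypl, the relative of Syp found in most tissues, was the highest of the list per length in PCa, at 155.4 and 350.2 CPM there and 199.9 to 248.6 CPM in WT, with a log2 fold change of 0.13 ± 0.34.

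Lists of peptides and amines, of surface and cytosol markers and of transcription factors gave no call in any comparison. Of 17 peptide and amine genes 4 were tested, and their median was -0.79 (log2) in PCa against WT. Slc18a1, a vesicular amine transporter, led that list per length in PCa and was at 75.1 to 100.4 CPM in WT, 56.5 to 130.0 in PIN, and 115.3 and 24.4 in PCa. Ddc, the decarboxylase that makes dopamine and serotonin, was at 15.6 CPM in PCa 2, 0.804 in PCa 1, 2.92 in WT 1 and no more than 0.216 in the other libraries. Of 11 surface and cytosol genes 6 were tested, with a median of -0.09, and Dpysl3 and Kcnh2 were highest per length in PCa. Kcnh2, a potassium channel, was at 37.6 and 19.7 CPM in PCa, above the highest WT value of 11.3 and the highest PIN value of 9.72 (log2 fold change against WT 2.33 ± 0.95, adjusted p = 0.161 by edgeR's quasi-likelihood F-test (Benjamini-Hochberg)). Dpysl3, a protein of growing neurites, was at 12.5 to 47.3 CPM in WT, 26.9 to 100.9 in PIN, and 26.4 and 53.2 in PCa.

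Of 19 transcription factors of neuroendocrine cells or neuroendocrine cancers, 4 passed the filter (Hes6, Isl1, Prox1 and Sox2), and their median was -1.26 (log2) in PCa against WT. Mycn, a factor amplified in some neuroendocrine tumors, had 0 to 5 counts in each library. Neurog2, Neurog3, Nkx2-1, Pou3f2 and Pou3f4 had no count in any library. Hes6 was the highest of the list per length in PCa, at 10.7 and 20.6 CPM beside 9.06 to 17.9 CPM in WT. Onecut2, a homeodomain factor, was at 141.2 CPM in PCa 1, 0.651 in PCa 2, and no more than 0.151 CPM in WT and PIN. It did not pass the filter, since 1 library alone exceeded 1 CPM, and the fit without the filter called it higher in PCa than in WT and PIN (adjusted p = 0.0215 and 0.0339 by edgeR's quasi-likelihood F-test (Benjamini-Hochberg)), while 4387 of its 4406 PCa counts were in PCa 1.

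Further genes high in single PCa libraries, chosen after their values were seen, fall outside the naming rule. Pax6, an endocrine and neural factor, was at 46.9 CPM in PCa 1 and at no more than 0.678 CPM elsewhere. Cadps, a priming factor for dense-core granule release, was at 185.2 CPM in PCa 2, 9.30 in PCa 1 and 0.344 to 5.08 in WT and PIN (log2 fold change against WT 4.84 ± 1.30, adjusted p = 0.0603 by edgeR's quasi-likelihood F-test (Benjamini-Hochberg)). Syt1, the calcium sensor of exocytosis, was at 14.5 CPM in PCa 2, 0.547 in PCa 1 and 0.136 to 5.14 in WT and PIN. Srrm4, a neural splicing factor, was at 9.81 CPM in PCa 2 and at no more than 1.69 CPM elsewhere. The high library was PCa 1 for Onecut2 and Pax6 and PCa 2 for Cadps, Ddc, Syt1 and Srrm4, while Onecut2 and Cadps lay above every WT and PIN library in both tumors. In neither tumor were Insm1 or Neurod1 above the limit of 3 counts.

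**Figure D4:**
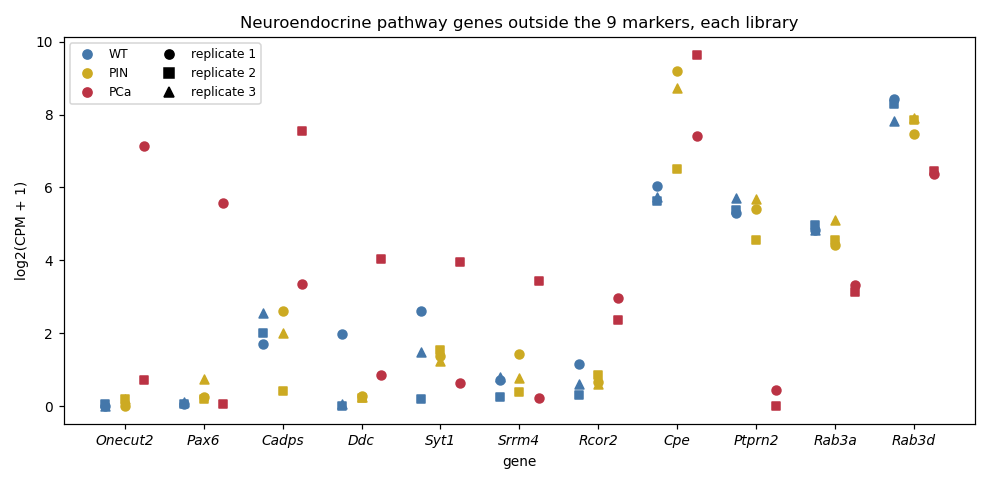
The x axis gives 11 genes of the wider neuroendocrine program and the y axis log2(CPM + 1), with 1 point for each of the 8 libraries (WT blue, PIN yellow, PCa red, and the shape giving the replicate). Onecut2 and Pax6 are high in PCa 1 alone, Cadps, Ddc, Syt1 and Srrm4 are highest in PCa 2, and Ptprn2, Rab3a and Rab3d lie lower in both PCa libraries than in any other.

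REST and its cofactors repress genes with RE1 elements, of which Chga, Chgb, Syp and Insm1 are printed above. All 11 genes of this list were tested. The list also holds the splicing factor Srrm4, which is not a REST cofactor (log2 fold change in PCa against WT 3.25 ± 1.41, not called). In PCa 1 gene was called higher against WT and against PIN and none lower. The share of all tested genes called higher was 4.35% against WT and 2.55% against PIN. The medians of the list, with Srrm4 included, were 0.33 and 0.48. Rest itself was at 38.0, 102.8 and 49.0 CPM in WT, 56.6, 55.5 and 53.5 in PIN, and 87.8 and 66.4 in PCa. Rest differed between PCa and WT by 0.28 ± 0.40 on the log2 scale (adjusted p = 0.690 by edgeR's quasi-likelihood F-test (Benjamini-Hochberg)), and WT 2 was the highest of the 8 libraries. The gene called was Rcor2, a corepressor of the CoREST family, at 1.24, 0.227 and 0.512 CPM in WT, 0.576, 0.792 and 0.527 in PIN, and 6.79 and 4.11 in PCa. Both tumors lay above every other library, and the log2 fold change was 3.05 ± 0.72 against WT and 3.10 ± 0.71 against PIN (adjusted p = 0.0412 and 0.0488), and each call held under 7 of 16 alternatives, whose log2 fold changes against WT ran from 2.64 to 3.86. Adjusted p-values reached 0.146 against WT and 0.191 against PIN among the alternatives. Ctdsp1, a phosphatase of the REST complex, was the highest of the list per length in PCa, at 84.1 and 111.4 CPM, beside 121.5 to 158.0 CPM in WT.

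The remaining lists describe the cells around the markers. None of 3 tested peripheral neuron genes was called in PCa against WT (median -2.33 on the log2 scale), and Hand2 (1.42 and 0.137 CPM) and Prph (1.06 and 0 CPM) were the highest per length in PCa. All 6 proliferation genes were called higher in PCa against both other groups, beside 4.35% of all tested genes against WT and 2.55% against PIN. Mki67 was at 16.1 to 20.3 CPM in WT and 222.6 and 305.1 CPM in PCa. The calls of the 6 held under 13 to 16 of 16 alternatives against WT and 9 to 14 against PIN. Of the tumor suppressors Rb1, Rbl1 and Trp53 none was called (adjusted p = 0.425, 0.220 and 0.330 in PCa against WT by edgeR's quasi-likelihood F-test (Benjamini-Hochberg)), and Rb1 was at 32.9 to 49.8 CPM in WT and at 35.2 and 84.6 CPM in PCa. Among luminal genes 1 of 8 was called lower, Pbsn (log2 fold change -8.70 ± 1.33, adjusted p = 0.0123 by edgeR's quasi-likelihood F-test (Benjamini-Hochberg)), and among basal, seminal vesicle and leukocyte genes none of 4, 6 and 5 was called in PCa against WT. The share of all tested genes called there was 4.18% lower and 4.35% higher. The PCa libraries differed in the basal and leukocyte sums, at 306.5 and 5.49 RPKM for basal and 213.8 and 15.7 RPKM for leukocyte genes in PCa 1 and PCa 2.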

How the data were processed

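Per the labels and the study's methods, the authors prepared libraries with a ribosomal RNA removal kit, trimmed paired-end reads with cutadapt 1.9.1, aligned them to mm9 with HISAT2 2.1.0 and counted them per gene with HTSeq 0.6.1. The deposited values are raw counts, and a further deposited column holds exon length, another kind of value used for RPKM. The analysis used edgeR 4.0.16 in R 4.3.3: genes above 1 CPM in at least 2 libraries, trimmed mean of M-values scaling, 1 model of 8 libraries and 3 groups (5 residual degrees of freedom), the quasi-likelihood F-test with p-values adjusted by Benjamini and Hochberg over all tested genes, and calls where the log2 fold change exceeded 1 in size and the adjusted p was under 0.05. The edgeR fit and its calls were tried on simulated counts for PCa against WT only, with less spread between libraries than in these data. The other comparisons and steps were not tried on simulated data. Each SE is the fold change divided by the root of its F value.

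The 9 markers and the 16 lists of related and cell type genes were chosen with earlier results of these data known. Named genes are the markers, of each list the called genes (4 at most) and the highest per length in PCa, or the 2 highest where none was called, and the 3 nearest profiles to each tested marker; other named genes were chosen after their values were seen. Alternatives were upper-quartile scaling, no filter, filterByExpr, a model restricted to 2 groups, a replicate block, DESeq2 1.42.0, limma-trend (limma 3.58.1), a newer quasi-likelihood method, no fold change limit, and leaving out each library. Counts of each list without WT 1 were added after the data were seen. The labels give separate samples per group, and p-values measure the spread between these. Deviations from the group mean had a mean r of 0.0827 over 7 pairs of same-numbered libraries of different groups and -0.0422 over 14 others. The 2 PCa libraries deviate from their mean as mirror images, so these values cannot decide whether the numbers pair samples. The human transgene was not analysed here, and results on some genes are not reported here.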

Additional observations from a re-analysis of the deposited data

How the results depend on the processing

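The counts of genes called depended on the method more than the fold changes did. In PIN against WT, DESeq2 called 39 genes and the newer quasi-likelihood method 1, with 0 markers throughout. In PCa against WT, where 1198 genes and 1 marker were called, DESeq2 called 2487 genes, and the model of only the 2 groups compared called 130 genes and 0 markers. In PCa against PIN, where 803 genes and 0 markers were called, DESeq2 called 1984 genes and 2 markers, and the model of the 2 groups 388 genes. With 1 library left out, 347 to 2477 genes and 0 to 1 markers were called in PCa against WT, 78 to 2251 genes and 0 to 1 markers in PCa against PIN, and 0 to 0 genes in PIN against WT. Where 1 PCa library was left, it was assumed to vary like the other groups, and for all these shifts the cause was not tested. The split into higher and lower in PCa against PIN was 358 and 445, and it was 37 and 123, 19 and 114, and 7 and 71 without PIN 1, PIN 2 and PIN 3.

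The labels do not say whether equal replicate numbers mark paired samples, and the correlations between libraries could not decide it. With the replicate block, 413 genes and 0 markers were called in PCa against WT, and 151 genes (28 higher, 123 lower) in PCa against PIN. Eno2 in PCa against WT then had an adjusted p of 0.0760, and in the model of the 2 groups 0.133. Among the list genes called in PCa against WT, that model lost Ptprn2, Mbp, Pbsn, Des and Tagln (adjusted p = 0.0588, 0.0938, 0.0778, 0.0611 and 0.0526), Rab3a, Rab3d, Rcor2, Aurka, Ccnb1 and Ezh2, and the block lost Rab3a and Rcor2. The block also moved fold changes that were not called, given here for PIN and then PCa against WT and last between PCa and PIN: Syp to -0.08, -1.20 and -1.12, Chga to 0.53, -0.21 and -0.74, and Ncam1 to 1.20, -0.41 and -1.61. Limma-trend gave 0.09, -0.53 and -0.63 for Chga.

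Signs turned only where a library was left out. Chga turned to -0.35 (without WT 2) and -1.29 (without PIN 3) in PIN against WT, to 0.75 (without WT 1) and 0.74 (without PCa 2) in PCa against WT, and to 1.07 (without PIN 3) and 0.60 (without PCa 2) in PCa against PIN. Syp turned to 0.53 and 0.18 without WT 1 against WT, and to 0.44 without PCa 2 in PCa against PIN. With 1 library left out, the ranges were -1.29 to 1.11, -3.85 to 0.75 and -3.99 to 1.07 for Chga, and -1.45 to 0.53, -3.05 to 0.18 and -2.11 to 0.44 for Syp, in PIN against WT, in PCa against WT and between PCa and PIN. Without WT 1, Mbp was not called in PCa against PIN, and Pbsn stayed called lower and 2 seminal vesicle genes (Svs3a and Pate4) were called higher in PCa against WT. Depth limits Chgb, Scg2 and Scg3, with 60 counts or fewer each over all libraries, and the 2 PCa libraries limit every comparison with PCa.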
